A study of Mus musculus with 16 samples.

Results

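The 34 genes described here are cardiomyocyte genes, read in aortic valves of mice. They were chosen by name, with no measured value in the rule, as genes of the sarcomere, of calcium handling and of the natriuretic peptides of heart muscle. The choice was made with earlier results of these data known. All 34 were found among the 20992 genes of the table, and all 34 passed the filter on low values. The study asked how hypertension and high cholesterol, alone and together, change the RNA of the aortic valve. Its 4 groups were all on the C57BL/6J background, and 15 libraries were used. HC/HT mice were knocked out for ApoE and also overexpressed human renin and human angiotensinogen (3 libraries used of 4 samples). HC mice were ApoE knockouts without the transgenes (4 libraries). HT mice overexpressed human renin and human angiotensinogen with ApoE intact (4 libraries). CON mice were the controls, with neither change named in the labels (4 libraries). Ages, diet and the promoters of the transgenes are not given in the sources used here, and the labels do not say whether valves of several mice were pooled.

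The contractile unit of heart muscle is the sarcomere, in which myosin thick filaments pull on actin thin filaments between Z-discs, with titin spanning from Z-disc to M-band. Calcium released through the ryanodine receptor starts contraction, and the pump SERCA2a, held back by phospholamban and sarcolipin, takes it back up. The aortic valve leaflet is made of interstitial and endothelial cells, and its base is attached at the junction of ventricular muscle and aorta, close to the atrial wall. In bulk tissue, fewer cardiomyocytes and less RNA per cardiomyocyte cannot be told apart.

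Values are the authors' normalised counts, multiplied by 1 factor so that the median library total is 1000000, and are called units here. Total RNA was amplified to cDNA before sequencing. Low values fall on multiples of a step, from which 1 read was estimated to be worth between 0.155 and 0.237 units and the libraries to hold about 4220000 to 6440000 reads. A value near 0.2 units is therefore about 1 read. In each library 4 rows, led by a ribosomal RNA precursor, held between 32.4% and 62.7% of the total. The table writes symbols in capitals (TTN, MYH6, TCAP, NPPA, NPPB), and they are given here in the mouse style. Apoe lay between 5.98 and 9.80 units in HC/HT, 2.15 and 12.3 in HC, 56.6 and 609 in HT, and 398 and 1014 in CON, so the 7 libraries labelled knockout lay below the other 8. HT replicate 2, HT replicate 3 and HC/HT replicate 2 correlated least with the other libraries over all genes, with a median Spearman coefficient of about 0.93 against up to 0.951. The HC and HC/HT libraries used carry label numbers from 1 to 7 and the CON and HT libraries from 9 to 17, so anything that followed this order cannot be told apart from the ApoE genotype. The only CON female was replicate 2, the only HC male replicate 2 and the only HC/HT male replicate 1.

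The cardiomyocyte genes were detected in every valve library at levels that differed widely between libraries. Together they took between 0.0368% of the total in HC/HT replicate 3 and 1.47% in HT replicate 2. Per kilobase of exon, the highest median levels over the 15 libraries were 75.4 units for Tnnt2 (cardiac troponin T), 39.6 for Actc1 (cardiac alpha-actin) and 33.8 for Atp2a2 (the SERCA2 pump). The giant gene Ttn, which encodes titin, made up between 25.9% and 43.0% of the summed units of the 34 genes, with an exon length of 114 kb, and per kilobase its median was 2.99. Of the 34 genes, 9 were listed at 0 in at least 1 library: Myl3, Nppb, Ckmt2, Actn2, Hrc, Myh7, Casq2, Sln and Xirp1. Myh6, Tnnt2, Tnni3 and Actc1, made mainly in heart muscle in the adult, were above 0 in 15 of 15 libraries. Of the skeletal muscle myosins on the marker list, Myh1, Myh2 and Myh3 reached at most 0.784 units in any library, and Myh8 lay between 0.392 and 2.64.

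**Figure D1:**
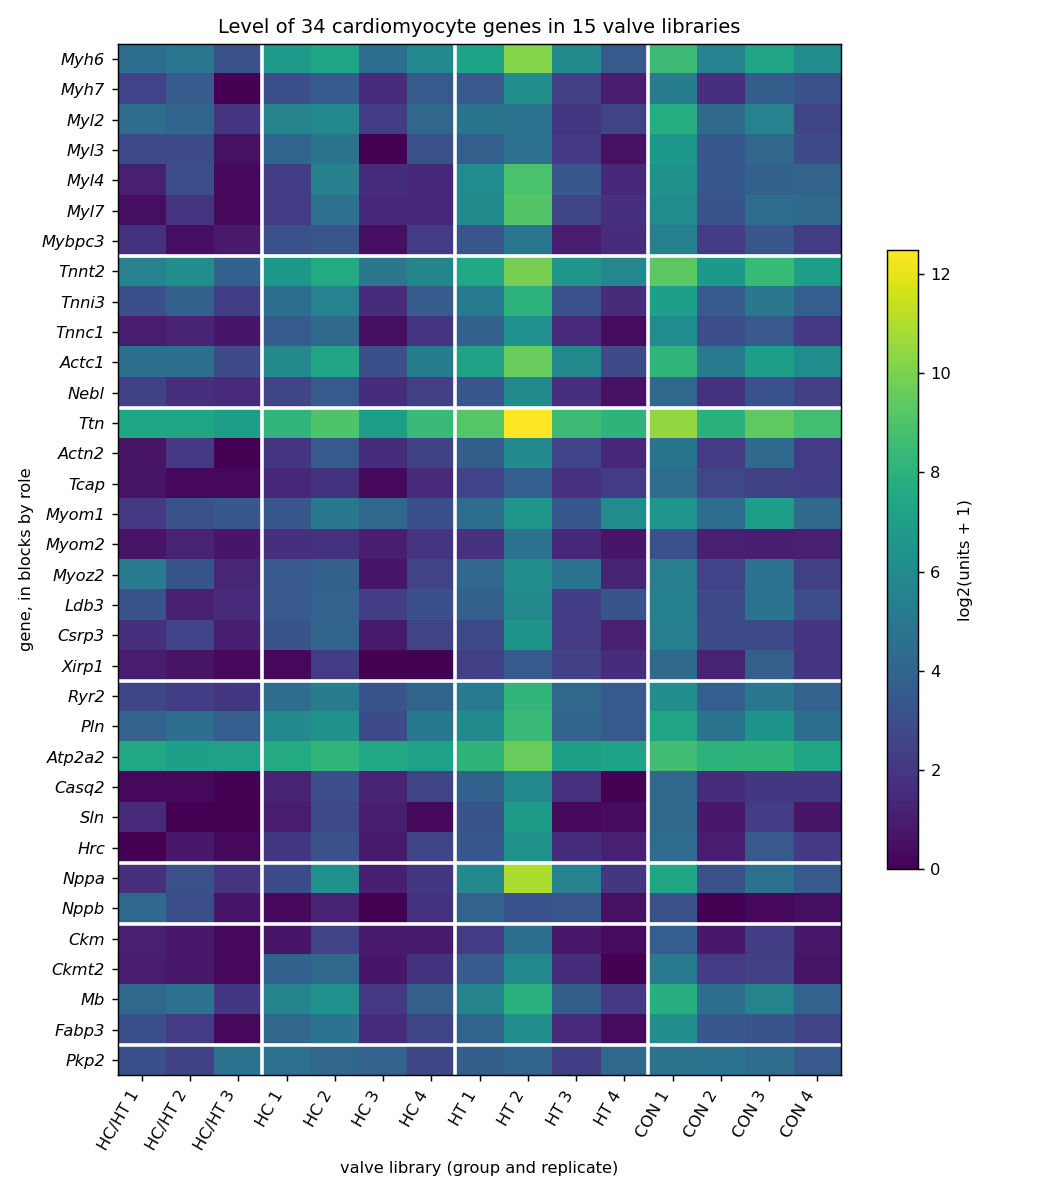
Level of the 34 cardiomyocyte genes (rows, in blocks by role) in the 15 valve libraries (columns, by group), as log2 of units plus 1. The HT replicate 2 column is the brightest, CON replicate 1 comes next, and the HC/HT columns are mostly dark.

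Single libraries dominated their groups. HT replicate 2 held the highest of the 15 values in 26 of the 34 genes, and CON replicate 1 in 6 and the second highest in 26. Within its own group, CON replicate 1 was highest in 33 of 34 genes, HT replicate 2 in 31 and HC replicate 2 in 31. At the low end, HC replicate 3 was lowest of HC in 28 genes, HT replicate 4 lowest of HT in 26 and HC/HT replicate 3 lowest of HC/HT in 24. The genes thus varied together from library to library. Their mean log2 level was 2.68, 2.71 and 1.68 in HC/HT, 3.58, 4.62, 2.02 and 3.03 in HC, 4.56, 6.83, 3.10 and 2.20 in HT, and 6.00, 3.26, 4.40 and 3.23 in CON. The HC/HT libraries were all low. HC, HT and CON each held lower and higher libraries and overlapped one another. HC and HT also reached into the HC/HT range, whereas every CON library lay above it. After group and sex were fitted, the residual SD of the 34 genes had a median of 1.64 on the log2 scale (0.72 to 2.61), against a median of 0.52 over all 15004 genes tested. In 33 of the 34 it exceeded 0.798, the 90th percentile of all genes, and Atp2a2, which is also made outside muscle, was the exception.

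Several members differ between the chambers of the adult heart, being made mainly in atrium or mainly in ventricle. Myl7, the atrial regulatory light chain, had 0.392, 2.84 and 0.196 units in HC/HT valves and 3.43, 25.2, 1.67 and 1.67 in HC valves. It had 61.2, 560.5, 5.09 and 2.35 units in HT valves, against 65.7, 8.52, 20.6 and 18.1 in CON valves. HC/HT lay below every CON library, and the HT libraries ran from the highest of all to below CON. Myl2, the ventricular regulatory light chain, had 21.3, 15.9 and 2.64 units in HC/HT and 47.6, 55.6, 3.82 and 16.2 in HC. It had 28.0, 25.9, 3.04 and 4.80 units in HT, against 208, 18.7, 44.6 and 5.19 in CON. For Myl2 the groups overlapped throughout, and HT replicate 2 did not stand out. The ratio of Myl7 to Myl2, which does not depend on how libraries were scaled, was 0.0184, 0.179 and 0.0741 in HC/HT and 0.0720, 0.452, 0.436 and 0.103 in HC. It was 2.19, 21.7, 1.68 and 0.490 in HT, against 0.316, 0.455, 0.462 and 3.49 in CON. HC/HT lay below every HT and CON library, and HC overlapped CON, whose replicate 1 fell within the HC range.

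Longer lists of chamber genes, which include Myl7 and Myl2 again, gave a partly similar order. The mean log2 of 4 atrial genes (Myl4, Myl7, Nppa, Sln) minus that of 3 ventricular genes (Myl2, Myl3, Myh7) was -2.04, -1.53 and -0.22 in HC/HT and -2.17, 0.04, 0.02 and -2.30 in HC. It was 1.24, 3.76, 0.80 and 0.03 in HT, against -0.55, -0.50, -0.63 and 0.23 in CON. HT values were above 0 in 4 of 4 libraries and HC/HT values below 0 in 3 of 3, so these groups did not overlap, while each overlapped HC and CON. Sln, sarcolipin, an inhibitor of the calcium pump found mainly in atrium, had 1.76, 0 and 0 units in HC/HT and 0.980, 5.68, 1.08 and 0.196 in HC. Sln had 8.42, 118, 0.196 and 0.294 units in HT, against 16.8, 0.784, 3.53 and 0.588 in CON. Only HT replicate 2 was far above the rest. The ratio of Myh6 (alpha myosin heavy chain, the main adult mouse form) to Myh7 (the beta, fetal form) was 4.69 and 2.54 in HC/HT replicates 1 and 2, with Myh7 at 0 in replicate 3. It lay between 5.22 and 14.6 in HC, 10.9 and 15.3 in HT, and 8.51 and 19.0 in CON. These ratios are descriptions without a test. The genes Myh6 and Myh7 are near-identical neighbours on chromosome 14, 4.04 kb apart, so reads could be split between them.

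**Figure D2:**
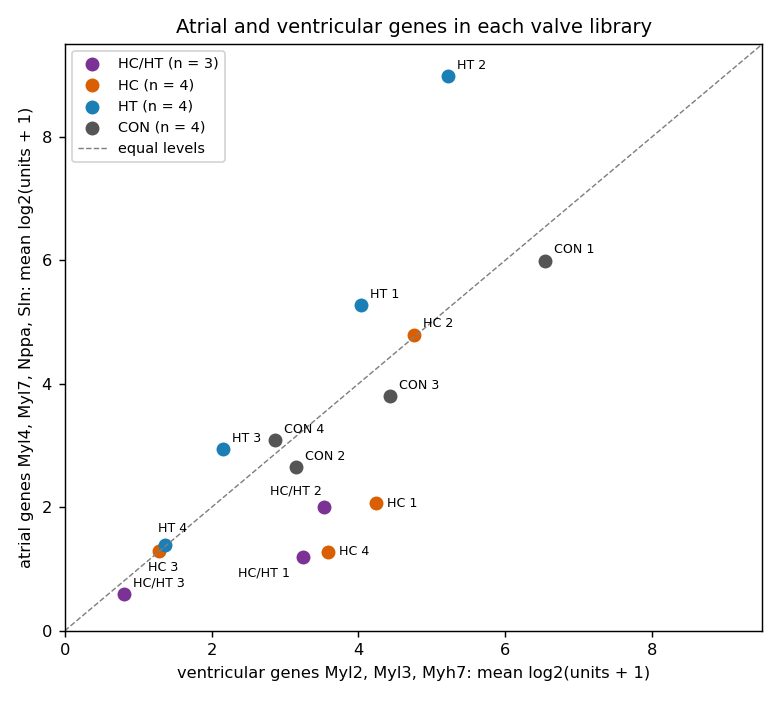
Mean log2(units + 1) of 4 atrial genes (vertical axis) against 3 ventricular genes (horizontal axis), 1 point per library, coloured by group, with the dashed line at equal levels. HT replicate 2 lies far above the line, with a difference of 3.76, while HC replicates 1 and 4 and HC/HT replicates 1 and 2 lie below it.

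The DNA before the start sites of the genes was searched for motifs of muscle gene control. RefSeq promoters (build GRCm38.p6, 250 bases before and 50 after the start) were held for 28 of the 34 genes, 38 promoters in all. Tcap, Atp2a2, Pkp2, Myom2, Sln and Xirp1 had none in the table. The CArG box, bound by serum response factor, was found on either strand in 7 of 38 promoters (18.4%), against 1.63% of all 32851 promoters of that length. These 7 belong to 6 genes, since Ldb3 has 2 overlapping promoters that share the site. The MEF2 motif (CTA and TAG with any 4 bases between) was in 5 promoters of 4 genes (13.2%, Ldb3 again counted in both) against 3.69%, and the GATA motif AGATAA in 7 (18.4%) against 11.2%. The MCAT motif CATTCC was in 9 (23.7%) against 14.7%, TATAAA in 6 (15.8%) against 13.6% and the NKX2-5 motif TNAAGTG in 3 (7.89%) against 11.5%. No match overlapped a match of another motif. Shown are the atrial and ventricular light chains Myl7 (chr11:5898733-5899032, minus strand) and Myl3 (chr9:110763428-110763727, plus strand) and cardiac actin Actc1 (chr2:114052826-114053125, minus strand), which carry CArG boxes. The neighbouring peptide genes Nppa (chr4:148000472-148000771) and Nppb (chr4:147985650-147985949), both on the plus strand, are shown because their levels differed across the valves. Capitals mark every match, on either strand, to the 6 motifs.
Myl7: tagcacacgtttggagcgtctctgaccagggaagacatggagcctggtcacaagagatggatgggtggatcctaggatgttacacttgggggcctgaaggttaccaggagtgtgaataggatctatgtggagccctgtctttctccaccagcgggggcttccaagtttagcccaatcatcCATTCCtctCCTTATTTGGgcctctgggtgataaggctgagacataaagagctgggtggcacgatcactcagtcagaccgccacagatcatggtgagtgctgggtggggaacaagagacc
Myl3: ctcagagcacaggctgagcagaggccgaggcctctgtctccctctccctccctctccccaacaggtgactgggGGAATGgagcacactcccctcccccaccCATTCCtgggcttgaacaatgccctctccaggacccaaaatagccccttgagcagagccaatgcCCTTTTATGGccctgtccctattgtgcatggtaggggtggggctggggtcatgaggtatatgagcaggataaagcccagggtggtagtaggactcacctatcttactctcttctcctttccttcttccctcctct
Actc1: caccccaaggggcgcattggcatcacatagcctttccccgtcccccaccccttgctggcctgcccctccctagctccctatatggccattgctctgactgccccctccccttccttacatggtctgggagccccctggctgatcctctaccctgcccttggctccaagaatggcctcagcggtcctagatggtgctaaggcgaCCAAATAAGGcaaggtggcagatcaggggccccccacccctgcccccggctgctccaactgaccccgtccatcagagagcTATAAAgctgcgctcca
Nppa: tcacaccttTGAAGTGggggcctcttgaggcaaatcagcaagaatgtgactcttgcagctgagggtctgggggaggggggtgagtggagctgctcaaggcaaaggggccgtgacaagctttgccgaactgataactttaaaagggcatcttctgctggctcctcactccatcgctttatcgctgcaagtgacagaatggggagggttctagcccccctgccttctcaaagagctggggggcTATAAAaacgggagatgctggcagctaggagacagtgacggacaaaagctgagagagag
Nppb: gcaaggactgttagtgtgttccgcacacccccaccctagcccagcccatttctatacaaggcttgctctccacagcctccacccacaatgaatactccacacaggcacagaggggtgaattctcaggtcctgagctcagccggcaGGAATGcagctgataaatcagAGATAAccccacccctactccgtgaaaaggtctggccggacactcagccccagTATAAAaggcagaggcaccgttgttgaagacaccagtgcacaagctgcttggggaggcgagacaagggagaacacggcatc
The CArG matches are the 10-base capitals in Myl7, Myl3 and Actc1, and TATAAA stands near the start in Actc1, Nppa and Nppb. Nppb alone of this pair has AGATAA in the window, and Nppa alone has a TNAAGTG match. A match is a description of the letters, not a shown binding site.

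With both ApoE lost and the transgenes present, the cardiomyocyte genes lay lower than in control valves in nearly every case. In HC/HT against CON, 33 of 34 genes had a lower fitted mean (66.8% of all genes did), with a median log2 difference of -2.04, against -0.20 over all genes. The genes varied together between libraries, so this count is not 34 separate observations. Differences were fitted with limma on log2 of units plus 1 with group and sex as terms, and p-values were adjusted over all 15004 genes by the Benjamini-Hochberg method. They weigh each fitted difference against the spread between these libraries. Of the 34 genes 1 passed at an adjusted p under 0.05, against 0.467% of all genes in either direction and 0.32% in the lower direction. At an unadjusted p under 0.05 there were 7 (20.6%), against 1710 of all genes (11.4%). In 17 of the 34 the 3 HC/HT libraries all lay below the 4 CON libraries, against 7.66% of all genes. With quantile or median-of-ratios scaling 14 of the 34 did so, against 6.25% (quantile) and 6.44% (median-of-ratios) of all genes. The 17 came from 5 of the 7 roles and included no energy gene and not the desmosomal one: thick filament (Myh6, Myl4, Myl7, Mybpc3), thin filament (Tnnt2, Tnnc1, Actc1), Z-disc and M-band (Ttn, Actn2, Tcap, Myom1, Xirp1), calcium handling (Ryr2, Pln, Casq2, Hrc) and Nppa.

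The gene that passed was Tcap, which encodes telethonin, the Z-disc cap of titin. Tcap had 0.588, 0.196 and 0.196 units in HC/HT valves and 1.67, 2.55, 0.196 and 1.86 units in HC valves. Tcap had 4.70, 12.0, 2.45 and 3.53 units in HT valves, against 20.6, 5.49, 4.41 and 4.02 units in CON valves. Every HC/HT library lay below every HT and CON library, and every HC library below every CON library. The mean was 0.327 ± 0.226 units in HC/HT (SD, n = 3), against 8.62 ± 7.99 units in CON (SD, n = 4). Tcap fell by 2.58 ± 0.55 (log2, SE) in HC/HT relative to CON, with an adjusted p of 0.0328 (limma). The HC/HT values are worth about 1 to 3 reads, and the fitted difference depends on the pseudocount. The adjusted p was 0.0505 with median-of-ratios scaling, 0.0518 with quantile scaling, 0.151 with limma voom on reads rebuilt from the steps, 0.0815 without CON replicate 1, 0.132 without CON replicate 2 and 0.153 without either HC/HT replicate 1 or 2. The largest was 0.154, without the 3 libraries that correlated least with the others.

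In the thick filament all 7 genes had lower means in HC/HT than in CON and none passed, with a median difference of -2.22. Myh6 had 22.0, 28.9 and 7.54 units in HC/HT valves, against 382, 44.6, 154 and 63.4 units in CON valves. The groups did not overlap, and Myh6 differed by -2.80 ± 1.46 (log2, SE; limma adjusted p 0.533). Myh7 had 4.70, 11.4 and 0 units in HC/HT, against 36.9, 2.35, 11.8 and 7.44 in CON, and the groups overlapped. For Mybpc3, myosin-binding protein C, the values were 2.55, 0.392 and 0.882 units in HC/HT, against 42.2, 3.72, 9.11 and 3.43 in CON. HC/HT lay lower throughout, with a difference of -2.22 ± 1.14 (limma adjusted p 0.519). Myl7 differed by -3.90 ± 1.68 (limma adjusted p 0.419), the most negative of the 34, and Myl2 by -1.49 ± 1.41 (limma adjusted p 0.772).

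In the thin filament all 5 genes had lower means in HC/HT, again with none passing and a median of -2.58. Tnnt2 had 45.2, 68.9 and 13.9 units in HC/HT, against 641, 99.3, 355 and 121 in CON, with no overlap. Its difference was -2.61 ± 1.15 (limma adjusted p 0.427). Actc1 had 23.4, 23.6 and 6.17 units in HC/HT, against 284, 34.9, 128 and 67.0 in CON. Tnnc1, the calcium-binding troponin C of heart, had 0.980, 1.37 and 0.686 units in HC/HT, against 66.8, 7.05, 10.2 and 3.23 in CON. In both genes HC/HT lay below CON in every library, yet CON itself ranged several-fold. Tnni3, cardiac troponin I, had 7.25, 13.2 and 4.02 units in HC/HT, against 129.7, 10.9, 30.4 and 12.0 in CON, and overlapped. For Nebl, nebulette of the Z-disc end of the filament, the difference was -1.15 ± 1.11 (limma adjusted p 0.777).

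Among titin and the Z-disc and M-band genes, all 9 had lower means in HC/HT, with a median of -1.93, and Tcap alone passed. Ttn had 162, 167 and 124 units in HC/HT valves, against 1420.4, 257, 661 and 415 units in CON valves. The HC/HT values were tight and all below CON, and Ttn differed by -1.96 ± 1.02 (limma adjusted p 0.526). Myom1, myomesin of the M-band, had 3.33, 7.54 and 9.31 units in HC/HT, against 93.2, 21.5, 123 and 18.9 in CON, with no overlap. Its difference was -2.65 ± 0.92 (limma adjusted p 0.311), and Xirp1, an actin-binding Xin repeat protein of the intercalated disc, differed by -1.84 ± 0.67 (limma adjusted p 0.288). Myoz2, the Z-disc protein calsarcin-1, differed little. Its values were 35.4, 8.33 and 1.57 units in HC/HT, against 39.9, 4.70, 25.5 and 4.21 in CON, a difference of -0.20 ± 1.38 (limma adjusted p 0.976). Actn2 (alpha-actinin of the Z-disc), Ldb3 and Csrp3 (Z-disc LIM proteins) and Myom2 had differences between -2.56 and -0.94.

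In calcium handling all 6 genes had lower means in HC/HT than in CON, with a median of -2.16, and none passed. Ryr2, the calcium release channel, had 5.09, 4.02 and 3.13 units in HC/HT valves, against 74.0, 12.0, 31.1 and 14.3 units in CON valves. Casq2, the calcium-storing calsequestrin, had 0.196, 0.196 and 0 units in HC/HT, against 17.2, 2.15, 3.13 and 3.04 in CON. Both genes lay lower in every HC/HT library, with differences of -2.45 ± 1.07 (limma adjusted p 0.425) for Ryr2 and -2.57 ± 1.19 (limma adjusted p 0.448) for Casq2. Pln, phospholamban, had 14.7, 21.7 and 12.3 units in HC/HT, against 169, 26.4, 86.0 and 22.1 in CON, and Hrc, a histidine-rich calcium-binding protein, had 0, 0.784 and 0.196, against 19.7, 0.980, 10.2 and 3.23. Atp2a2 had 178, 131 and 143 units in HC/HT, against 408, 266, 277 and 169 in CON, and overlapped only at CON replicate 4. Its difference of -0.95 ± 0.47 (limma adjusted p 0.463) was one of the smallest of the 34. The 4 energy genes, Ckm and Ckmt2 (creatine kinases), Mb (myoglobin) and Fabp3 (heart fatty acid-binding protein), had lower means with a median of -2.02 and overlapped CON in each case. The desmosomal gene Pkp2 (plakophilin 2) had 7.25, 4.31 and 25.6 units in HC/HT, against 26.5, 25.9, 20.6 and 10.1 in CON, and HC/HT replicate 3, low in most members, was high here.

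**Figure D3:**
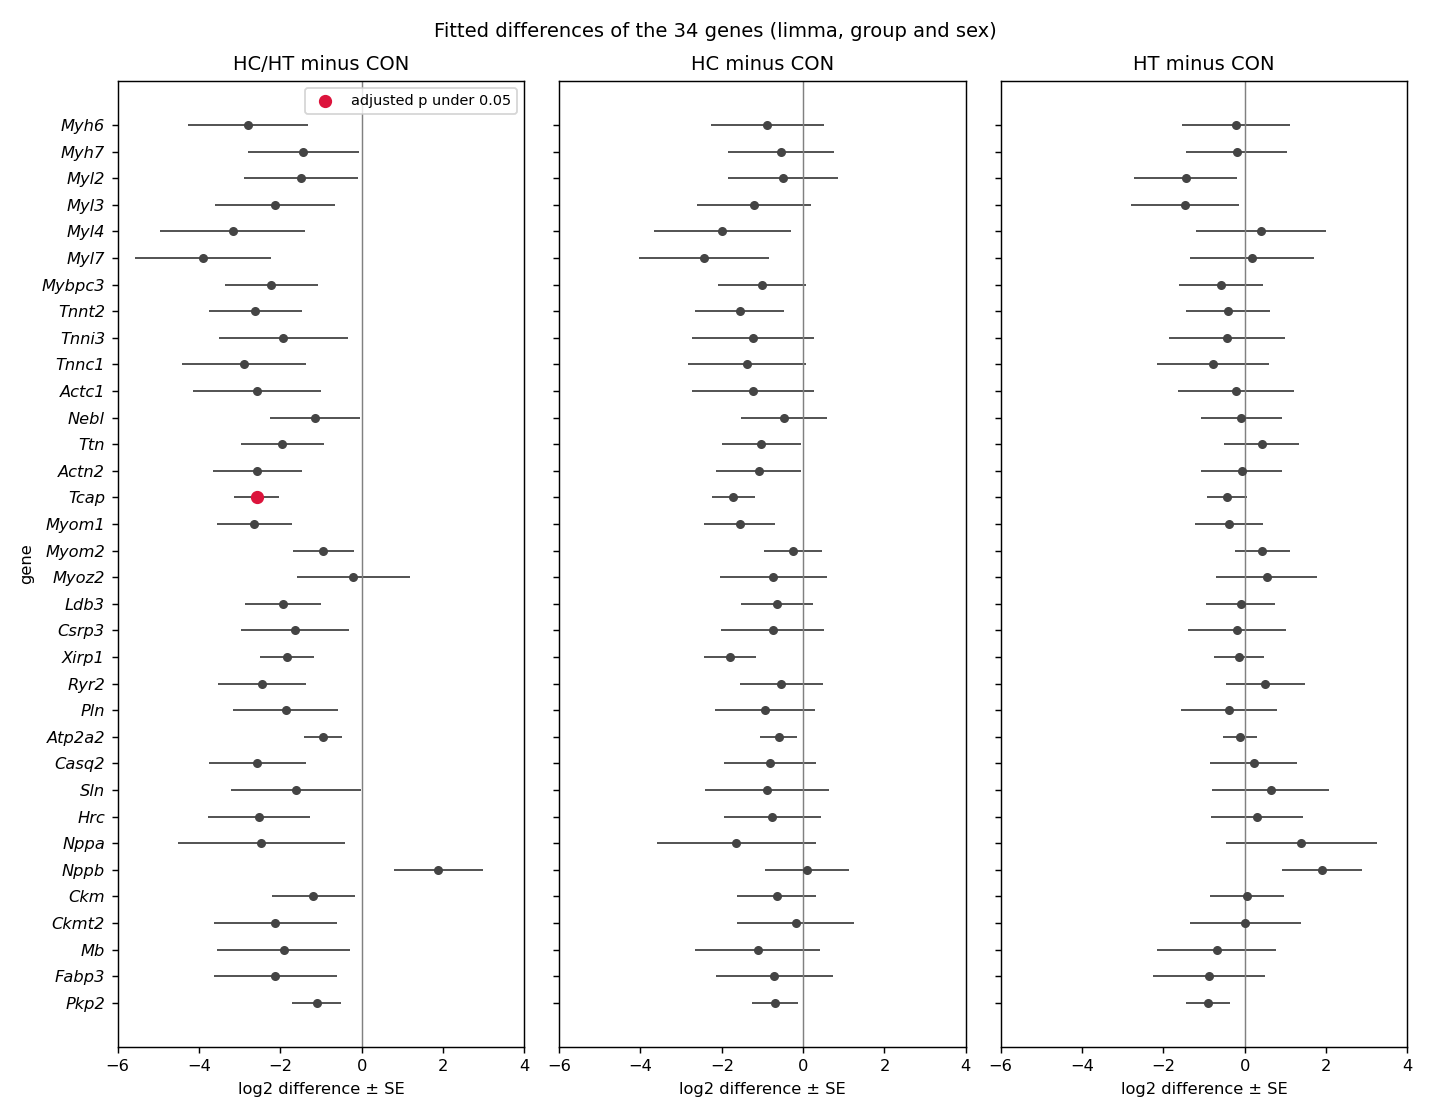
Fitted log2 differences (points) with their SE (bars) for the 34 genes in HC/HT minus CON, HC minus CON and HT minus CON, from limma with group and sex as terms. In HC/HT 33 points lie left of 0 with Tcap in red as the gene that passed, and in HT the points lie on both sides of 0.

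In HC valves, which lack ApoE alone, the genes leaned lower without passing. Against CON, 33 of 34 had lower fitted means in HC (52.7% of all genes did), with a median of -0.88 (all genes -0.02). The median moved with single libraries and the fit. It was -0.40 without CON replicate 1, -0.51 without HC replicate 3, -0.55 without HT replicate 2 and -1.82 without HC replicate 2. With only the 8 HC and CON libraries fitted, 18 genes were lower and 16 higher. Of the 34 genes 0 passed by limma (0.167% of all genes did). At an unadjusted p under 0.05 there were 2, Tcap and Xirp1 (5.88%), against 602 of all genes (4.01%), and limma voom called 0 too. Tcap differed by -1.72 ± 0.53 in HC (limma adjusted p 0.432) and was the only member whose groups did not overlap, against 1.76% of all genes lower without overlap. Xirp1 had 0.196, 3.62, 0 and 0 units in HC valves, against 18.6, 1.37, 12.8 and 2.64 units in CON valves. Of the HC libraries only replicate 2 was clearly above 0, and the groups overlapped there, with a difference of -1.79 ± 0.64 (limma adjusted p 0.736). Ttn had 296, 528, 129 and 339.8 units in HC, against 1420.4, 257, 661 and 415 in CON, and the groups overlapped. Myh6 had 105, 169, 21.5 and 56.2 units in HC, against 382, 44.6, 154 and 63.4 in CON. In both genes CON replicate 2 lay below most HC libraries, and CON replicate 1 above all of them.

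HT valves, with the transgenes alone, showed no common direction. Against CON, 21 of the 34 genes had lower and 13 higher fitted means, with a median of -0.12, against -0.42 over all genes. Of all genes 86.7% were lower. With quantile scaling, which brings the median of all genes close to 0, 25 of the 34 were higher, and with median-of-ratios factors 26. None passed by limma, as for all genes (0%), and limma voom called 0. None had an unadjusted p under 0.05, against 1922 of all genes (12.8%). No member's groups were apart, against 4.15% of all genes lower and 0.0666% higher. Ttn had 592, 5717, 370.3 and 277 units in HT valves, against 1420.4, 257, 661 and 415 in CON valves. HT replicate 2 alone exceeded CON replicate 1, and the other 3 lay within the CON range. Nppa, the atrial natriuretic peptide, had 57.4, 1953, 44.6 and 3.13 units in HT, against 166, 7.64, 24.9 and 10.1 in CON, a difference of 1.40 ± 1.85 (limma adjusted p 0.683). The sign over the list rested on single libraries: without HT replicate 2, 33 of the 34 were lower in HT, and without CON replicate 1, 29 were higher.

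**Figure D4:**
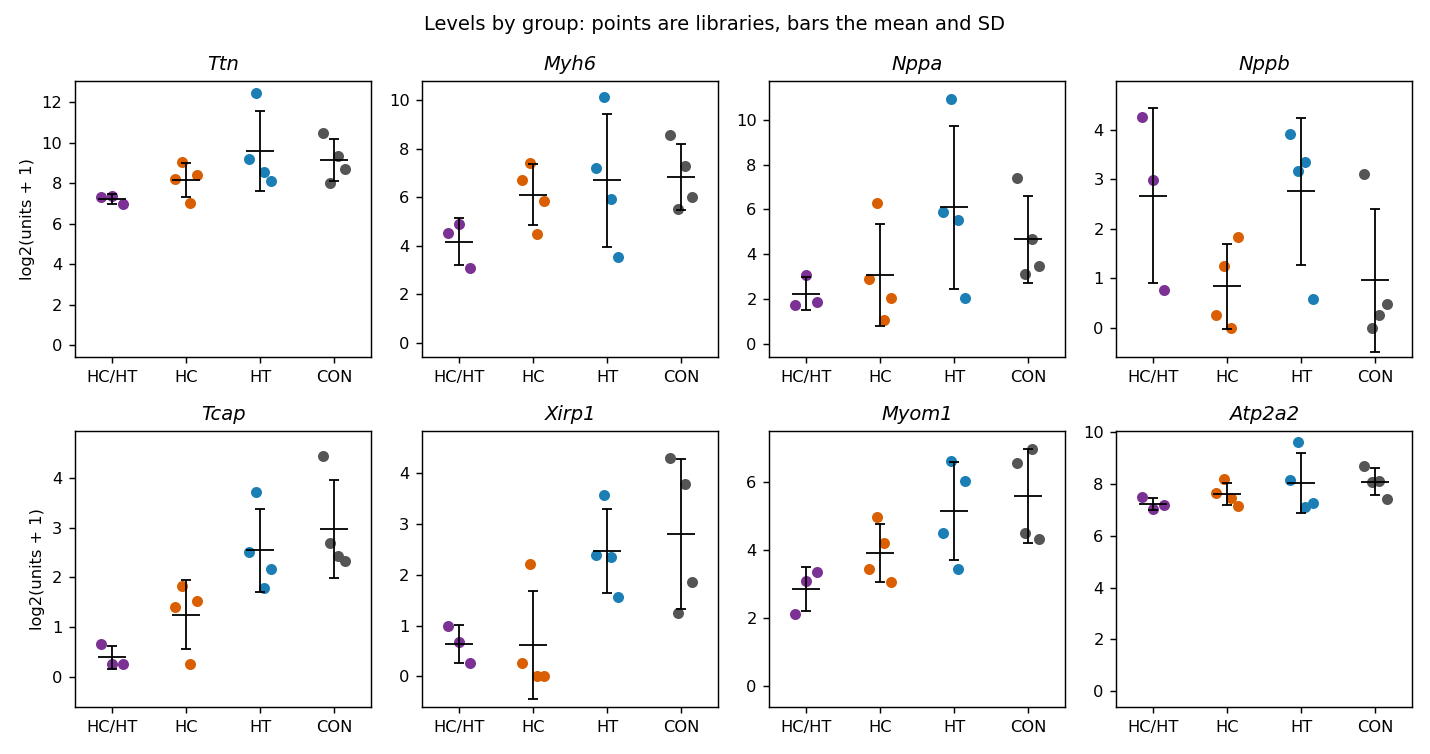
Levels of 8 of the genes by group as log2(units + 1), with 1 point per library, the group mean as a wide bar and the SD as error bars (HC/HT n = 3, other groups n = 4). Tcap and Xirp1 are low in HC/HT, the HC/HT points of Ttn lie close together below the CON points, and Nppb is high in most HC/HT and HT libraries.

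Adding the transgenes to ApoE loss, HC/HT lay below HC in 32 of 34 genes (69.4% of all genes), with a median of -0.93 (all genes -0.18). Without HC replicate 2 the median was -0.41 with 24 of 34 lower, and without HC replicate 3 it was -1.54. None passed by limma (0% of all genes did), and none had an unadjusted p under 0.05, against 661 of all genes (4.41%). Limma voom called 0. In 3 genes, all of calcium handling, the groups did not overlap, against 4.53% of all genes lower. With other scalings 2 did so, Ryr2 and Casq2, against 3.19% (quantile) and 3.35% (median-of-ratios) of all genes lower. Ryr2 had 5.09, 4.02 and 3.13 units in HC/HT, against 20.8, 37.8, 8.52 and 15.4 in HC. Casq2 had 0.196, 0.196 and 0 units in HC/HT, against 1.37, 6.95, 1.27 and 4.80 in HC. Hrc had 0, 0.784 and 0.196 units in HC/HT, against 3.04, 7.64, 0.882 and 5.09 in HC. In HC/HT the values of Casq2 and Hrc rest on a few reads at most. The gap was narrow for Hrc and wider for Ryr2, which differed by -1.91 ± 1.03 (limma adjusted p 0.984).

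Adding ApoE loss to the transgenes, HC/HT lay below HT in 34 of 34 genes (30.5% of all genes), with a median of -1.77, against 0.21 over all genes. Without HT replicate 2 the median was -0.79 and 28 of 34 were lower. None passed by limma (0.373% of all genes did), and limma voom called 0. At an unadjusted p under 0.05 there were 9 (26.5%), against 1307 of all genes (8.71%). The smallest adjusted p was 0.0751, for Tcap, which differed by -2.15 ± 0.53 (limma). In 6 genes, Ttn, Tcap, Myom1, Xirp1, Ryr2 and Hrc, the groups did not overlap, against 1.18% of all genes lower. With other scalings it was also 6, against 4.09% (quantile) and 4.15% (median-of-ratios) of all genes lower. Ryr2 had 5.09, 4.02 and 3.13 units in HC/HT, against 33.6, 298, 17.6 and 10.5 in HT, and differed by -2.97 ± 1.03 (limma adjusted p 0.412). Myom1 had 3.33, 7.54 and 9.31 units in HC/HT, against 21.6, 96.7, 9.99 and 63.5 in HT, where replicate 3 came close to HC/HT. Myl2 and Myl3, the ventricular light chains, differed by -0.04 ± 1.36 (limma adjusted p 0.998) and -0.68 ± 1.42 (limma adjusted p 0.923), and Myl7, the atrial one, by -4.09 ± 1.62 (limma adjusted p 0.501). Whether the HC/HT change differs from the sum of the HC and HT changes was asked by the interaction term, which passed for 0 of the 34 by limma (0% of all genes) with a median of -0.70. Without HT replicate 2 that median was 0.06, with 16 genes below 0 and 18 above, and without HC replicate 2 it was -0.01. None had an unadjusted p under 0.05, against 207 of all genes (1.38%), and limma voom called 0.

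Pooling by ApoE genotype set 7 knockout libraries (HC/HT and HC) against 8 intact libraries (HT and CON). In the knockout libraries 33 of 34 genes had lower fitted means (38.2% of all genes did), with a median of -1.34, against 0.09 over all genes. Without HT replicate 2 the median was -0.57. Tcap fell by 1.94 ± 0.38 (log2, SE) with a limma adjusted p of 0.00561, and was the only gene of the 34 to pass, against 1.47% of all genes in either direction and 0.187% lower. Tcap passed in 25 of 27 alternatives, but its adjusted p was 0.0627 without HT replicate 2 and 0.115 without the 3 libraries that correlated least. Its values were below those of the intact libraries except that HC replicate 2, at 2.55 units, came just above HT replicate 3, at 2.45. No member was free of overlap between genotypes (0.12% of all genes were lower without overlap). With other scalings Tcap was, against 0.253% (quantile) and 0.213% (median-of-ratios) of all genes lower. Xirp1 came next, with a difference of -1.74 ± 0.46 (limma adjusted p 0.0706). It had at most 0.980 units in 6 of the 7 knockout libraries and 3.62 in HC replicate 2, against 4.21, 10.8, 4.11 and 1.96 in HT and 18.6, 1.37, 12.8 and 2.64 in CON. At an unadjusted p under 0.05 there were 10 of the 34 (29.4%), against 1477 of all genes (9.84%). Myl2 differed by only -0.27 ± 0.98 (limma adjusted p 0.977), and Myl7 by -3.26 ± 1.16 (limma adjusted p 0.325). These pooled comparisons use the same libraries as those above and are not further evidence.

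Pooling by pressure model set 7 transgenic libraries (HC/HT and HT) against 8 others (HC and CON). In the transgenic libraries 31 of 34 genes had lower fitted means, with a median of -0.66 (all genes -0.30), close to the 84.0% of all genes that were lower. The median was -0.23 without HT replicate 4 and -1.10 without HT replicate 2, and 0 of the 34 passed by limma (0.0133% of all genes did). Limma voom called 0 too. At an unadjusted p under 0.05 there was 1 (2.94%), a smaller share than the 2501 of all genes (16.7%). That gene was Nppb, the B-type natriuretic peptide, which in ventricular muscle is induced by stretch. Nppb had 18.1, 6.95 and 0.686 units in HC/HT valves, against 0.196, 1.37, 0 and 2.55 units in HC valves. Nppb had 14.2, 7.93, 9.21 and 0.490 units in HT valves, against 7.64, 0, 0.196 and 0.392 units in CON valves. It was at 6.95 units or more in 5 of the 7 transgenic libraries and in 1 of the 8 others, CON replicate 1. The difference was 1.85 ± 0.71 (log2, SE) with a limma adjusted p of 0.247, so it did not pass. Nppb was also the member that lay higher in HC/HT than in CON, by 1.89 ± 1.08 (limma adjusted p 0.576). Its neighbour Nppa, 13.5 kb away on chromosome 4, differed by 0.28 ± 1.34 between the pooled groups (limma adjusted p 0.917). Nppa was at 1953 units and Nppb at 7.93 in HT replicate 2, whereas HC/HT replicate 1 had 2.35 units of Nppa and 18.1 of Nppb. Exons of Nppa overlap a gene on the other strand, as do those of 11 further members, and the kit is not stated to keep strand, so such values are uncertain.

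Other genes of heart muscle were read from lists beside the 34. Of 28 other sarcomere and cytoskeleton genes 22 were tested, and 20 had lower means in HC/HT than in CON, with a median of -1.19 and none past the threshold. Of 17 muscle energy genes 16 were lower, with a median of -0.89 and none past it. Of 14 cardiac transcription factors tested 12 were lower and 1 passed, and of 20 ion channel and excitation genes 17 were lower and 1 passed. Tbx5, a T-box factor of atrial and conduction muscle, had 2.55, 0.980 and 2.45 units in HC/HT valves, against 10.9, 24.3, 6.86 and 32.6 units in CON valves. The groups were apart, and Tbx5 fell by 2.74 ± 0.54 in HC/HT (limma adjusted p 0.0179). Kcnj5, a subunit of the acetylcholine-gated potassium channel of atrium, had 0.588, 4.02 and 2.84 units in HC/HT, against 12.8, 9.70, 10.9 and 13.1 in CON. Kcnj5 fell by 2.28 ± 0.49 in HC/HT (limma adjusted p 0.0328), and both genes also passed between the pooled ApoE genotypes, with limma adjusted p of 0.0311 for Tbx5 and 0.00932 for Kcnj5. HT replicate 2 had 17.7 units of Tbx5 and 19.5 of Kcnj5, against 32.6 and 13.1 in CON replicate 4, which had the lowest CON value in 15 of the 34. Nkx2-5, a factor of cardiomyocytes, was at 0.392 units or less in every library, and Gata4, made in valve interstitial cells too, lay between 46.5 and 177.

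Markers of other cell types moved with the cardiomyocyte genes in part. Smooth muscle genes were the closest: all 15 had lower means in HC/HT than in CON, with a median of -2.15, and Mylk, the myosin light chain kinase, passed, with a difference of -2.59 ± 0.53 (limma adjusted p 0.0416). Between the pooled ApoE genotypes Myl9, a smooth muscle myosin light chain, fell by 2.76 ± 0.59 in the knockout libraries (limma adjusted p 0.0443). The summed level of the 15 lay between 311 and 509 units in HC/HT, 368 and 1311 in HC, 437 and 1984 in HT, and 731 and 4354 in CON. CON replicate 3 was the highest in smooth muscle, with a mean log2 of 7.21, and CON replicate 1 the second at 6.88, and HT replicate 4, low in cardiomyocyte genes, was at 6.01. Of 8 epicardial and mesothelial genes, which mark the outer lining of the heart, 4 were tested. Upk3b, a mesothelial uroplakin, had 22.8 units in HT replicate 2 and 13.7 in HC replicate 2, and at most 2.06 in each of the other 13 libraries. The summed level of the 8 was 111 units in HT replicate 2 and 81.9 in HC replicate 2, between 4.41 and 10.2 in HC/HT and between 9.31 and 23.4 in CON, with up to 6 of the 8 at 0 in an HC/HT library. These 2 libraries were also the highest of their groups in most of the 34. CON replicate 1, highest of CON in 33 of the 34, had a sum of only 10.4 units, below the 23.4 of CON replicate 3. Of 19 skeletal muscle genes 3 were tested. Their sum over the list was at most 34.3 units, in HT replicate 2, of which 28.7 were Myl1, a skeletal light chain. Valve interstitial genes had a mean log2 between 7.54 and 9.56 in all 15 libraries. Their fitted means were also lower in 13 of 15 genes in HC/HT against CON (median -0.70), in 14 in HC/HT against HC (median -0.71) and in 15 in HT against CON (median -0.70), with none past the threshold. Macrophage genes went the other way, with 8 of 11 higher in HC/HT than in CON, none past the threshold there. Of these 11, 5 rose in the pooled ApoE knockout libraries: Cd68, Lyz2, C1qb, Cd14 and Laptm5, with differences of 2.04 ± 0.30 for Cd68 and 2.13 ± 0.38 for Lyz2 (limma adjusted p 0.000371 and 0.00454). Cd68, Lyz2 and Laptm5 also rose in HC/HT relative to HT, by 2.37, 2.66 and 2.13. The part of these cell types in the differences of the 34 genes was not tested.

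**Figure D5:**
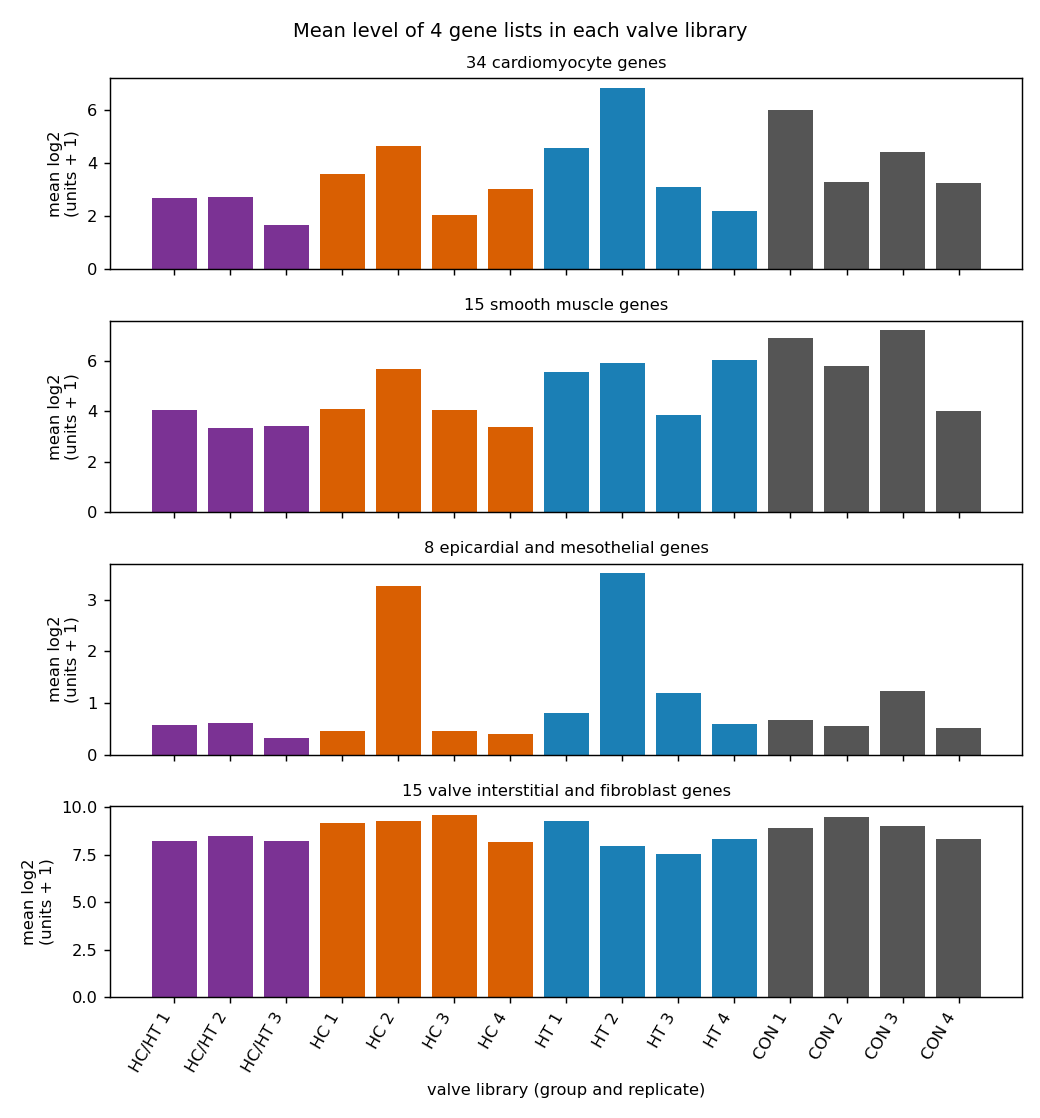
Mean log2(units + 1) per library of the 34 cardiomyocyte genes and of lists for smooth muscle (15 genes), epicardial and mesothelial cells (8) and valve interstitial cells and fibroblasts (15), coloured by group. Cardiomyocyte levels run from 1.68 to 6.83, mesothelial genes stand out in HC replicate 2 and HT replicate 2, and interstitial genes lie between 7.54 and 9.56.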

How the data were processed

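RNA of mouse aortic valves was sequenced after amplification with the Nugen Ovation RNA-Seq System v2, per the labels' protocols. Tools listed in the submitters' processing notes are Bowtie 1.0.1, SAMtools 0.1.9, FastQC 0.11.2 and edgeR, with mm10 as build. How the authors normalised is not stated there. What was deposited is a score, made by the authors from counts that were normalised to nearly equal library totals and rounded. They carry steps of a fixed size in each library (86.0% to 99.1% of low values fell on a multiple, against 41.3% to 63.1% expected without steps), from which depth was estimated. No counting interval is given.

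From these, values were multiplied by 0.0979537. Columns were matched to samples by name, and 1 unnamed column was not used, which leaves HC/HT with 3 libraries. The 15004 genes that reached 1 unit in 4 or more libraries entered a linear model in limma 3.58.1 (R 4.3.3, eBayes with trend and robust) on log2(units + 1), on all 15 libraries with group and sex. Two-sided p-values were adjusted by the Benjamini-Hochberg method, and 0.05 was the threshold. The model was tested on simulated data, but the outcome is not given here, so nothing is drawn from it. The pseudocount shrinks differences of low genes. Apoe was compared by an exact permutation test, two-sided (p 0.000311). Exon lengths and positions are from GENCODE on GRCm38, the build named mm10, and promoters from RefSeq on GRCm38.p6.

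The members, lists and tests were chosen with earlier results of these data known. All 34 members are reported. Of the other lists, genes that passed and the first 3 of a list could be named. Other markers were named after their values were seen. Alternatives were other scalings (quantile, median-of-ratios, totals without the 4 most abundant rows), a pseudocount of 0.25 or 4, filters at 0 and 5 units, a fit with no sex term, a replicate block, array weights, plain eBayes, a threshold of 0.1, fits on only 2 groups, and each library left out. Added after seeing the data were limma voom on rebuilt reads and a fit without 3 libraries.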

Additional observations from a re-analysis of the deposited data

Results flagged for a closer look

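In groups of 4 libraries, a highest or lowest library was sought whose gap to its nearest neighbour took more of the group's range than Dixon's critical value at 95% allows. Chance flags about 1 in 20 groups, and 102 member-by-group sets gave 5, which is about that rate. CON replicate 1 was the far library for 3 genes: Myom2 with 7.74 units, Casq2 with 17.2 and Nppb with 7.64. For Nppb it was the CON library that overlapped the transgenic groups. HC replicate 2 was the far library for Xirp1, with 3.62 units, and for Ckm, with 4.80. HT replicate 2, highest in most members, did not pass this limit in any of the 34. Of 18 library summaries, 2 had a far library. The atrial minus ventricular difference was 0.23 in CON replicate 4, above 0 where the other CON libraries lay below it. The epicardial and mesothelial mean log2 was 3.27 in HC replicate 2, where the other HC libraries were near 0. The causes were not tested.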

How the results depend on the processing

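Of the 34 genes, the count past the threshold in HC/HT against CON was 1. It was 0 with quantile scaling, median-of-ratios scaling, totals without the 4 most abundant rows, a pseudocount of 4, no filter, a filter at 5 units (which does not test Tcap), limma voom and without the 3 libraries that correlated least. It was 3 with only the groups compared, and 0 to 1 with each library left out. Between the ApoE genotypes the count was 1. It was 2 with a pseudocount of 0.25, without the sex term and at an adjusted p under 0.1, 0 with a filter at 5 units and without the 3 libraries, and 0 to 2 with each library left out. In HC/HT against HT the count was 0, 13 with only the groups compared, 1 at an adjusted p under 0.1, and 0 to 1 with each library left out. In HC against CON it was 0, and 1 with array weights. With each library left out, 7 to 143 of all genes passed in HC/HT against CON. The range was 72 to 418 between ApoE genotypes and 7 to 259 in HC/HT against HT. For the other alternatives the counts over all genes are not given here. Their counts, such as the 13, are therefore not read as particular to the 34 genes. The causes were not tested.

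With replicate numbers as a block, the replicate block gave 2 genes in HC/HT against CON, 2 between ApoE genotypes and 1 in HC/HT against HT. The counts over all genes in that fit are not given here either. Deviations of libraries with the same number correlated between -0.12 and 0.27 over 21 pairs, so the numbers were not taken as pairs. In every alternative each median over the 34 genes moved by less than the spread between libraries (1.48). That spread is larger in size than most of the medians, such as -0.88 in HC against CON and -0.12 in HT against CON. A median could turn sign within it, so this does not show that the medians are stable. The interaction median turned sign without HT replicate 2, to 0.06. In HT against CON the sign turned with the scaling, to 0.25 (quantile) and 0.28 (median-of-ratios). With each library left out, that median ran from -0.87 (without HT replicate 2) to 0.74 (without HT replicate 4). For the ApoE genotypes it ran from -1.97 (without HC replicate 2) to -0.57 (without HT replicate 2), in HC against CON from -1.82 (without HC replicate 2) to -0.40 (without CON replicate 1), and in HC/HT against CON from -2.62 (without CON replicate 2) to -1.44 (without CON replicate 1). Apoe kept its direction, from -6.22 to -5.59. Depth limits the low genes: at this depth, Tcap, Casq2 and Hrc in HC/HT rest on a few reads.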
